A study of Sus scrofa with 20 samples.

Results

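The comparison described here is that of weaned with suckling piglets at 35 days of age, and it rests on 6 of the 20 arrays of the series, chosen by their deposited labels. The 3 arrays labelled S35D stand for piglets that stayed with the sow and received only her milk until 35 days of age. The 3 arrays labelled 21W35D stand for piglets that were separated from the sow at 21 days, fed a commercial weaning diet and killed at 35 days, 14 days after weaning. All were crossbred piglets (Landrace, Large white and Duroc) from a commercial farm. RNA of the ileal mucosa of 1 piglet was put on each array, an Affymetrix GeneChip Porcine Genome Array. No source used here gives the litter of a piglet, so litter could not be modelled. According to the paper the piglets came from the litters of a few sows, so some arrays may be of littermates. P-values of the main test rest on a spread between piglets pooled over the groups of all 20 arrays, and those of the methods' t-test on these 6. Weaning in this design changed the diet and removed the sow together, and these cannot be told apart.

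The labels S35D and 21W28D may be exchanged. 21W28D piglets were weaned at 21 days and killed at 28 days. The score of the type 1 interferon response, which averages the log2 values of its listed genes, each centred over the 20 arrays, was 1.35 to 2.11 in the arrays labelled S35D and 1.07 to 1.51 in those labelled 21W35D. It was -1.12 to -0.284 in the arrays labelled 21W28D and -0.941 to 1.09 in S28D piglets, which suckled to 28 days. In the paper's real-time PCR, interferon genes were higher in weaned than in suckling piglets of the oldest age sampled. The paper's pathway analysis of its arrays also found interferon signalling positively affected in weaned piglets of that age, given for reference only. The arrays as labelled do not show this direction. Every value below is therefore given for arrays as labelled. For the genes and lists described, the value under exchanged labels is the comparison of the 21W35D arrays with the arrays labelled 21W28D, and it is given for most of them.

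Weaning replaces milk, with its fat, lactose, antibodies and growth factors, by solid feed of plant origin, and it exposes the gut to feed antigens and to a changed microbiota. The ileum of the pig holds a long continuous Peyer's patch, rich in B cell follicles, beside epithelium whose intraepithelial lymphocytes are mostly T cells. T cells recognise antigen through a receptor that signals through the CD3 chains and B cells through one that signals through CD79, and MHC class II molecules on presenting cells show antigen to helper T cells. The epithelium adds secreted defence proteins such as collectins, which bind sugars on microbes, and enzymes that conjugate ingested compounds to glutathione.

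The tissue label was checked against defining markers. EPCAM, an adhesion protein of epithelial cells, lay between 14.75 and 15.21 log2 units in the 6 arrays, and FABP6, the ileal bile acid binding protein, between 15.003 and 16.069. The epithelial score was 0.312 to 0.689 in the arrays labelled S35D and 0.0528 to 0.521 in 21W35D arrays. Values are in log2 units, so that a difference of 1 unit is 2-fold, and they run from a floor of 2.1 to 16.41. Within 1 unit of the floor lay 41.6% of all values, and small differences there are compressed. Replicate 2 of 21W35D stood apart from the other 2 arrays of its group, with correlations of 0.9681 and 0.971 to them over all probe sets, while those 2 correlated at 0.9967. The arrays labelled S35D correlated at 0.9854 to 0.9925. The reference genes GAPDH and ACTB differed by 0.03 each. The median SD between piglets was 0.327 in 21W35D and 0.226 in S35D, over 12267 probe sets. For some lists and genes in which that array is low or high, the value without it is also given. Others are given only with it.

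Few probe sets passed the test. In limma, fitted to all 20 arrays and adjusted by Benjamini-Hochberg over 23999 probe sets, 21W35D piglets had 3 higher (0.0125%) and 2 lower (0.00833%) at an adjusted p under 0.05 and at least 2-fold. Without the fold minimum 11 passed, and 1406 had an unadjusted p under 0.05, of which 865 were higher and 541 lower. In the methods' t-test 639 had an unadjusted p under 0.05 at any fold. Where nothing differs, a share of about 0.05 of tested probe sets still passes, so neither count is by itself a sign of differences. At an unadjusted p under 0.05 and 2-fold in the methods' t-test, called the methods' criterion below, 47 were higher (0.196%) and 33 lower (0.138%). The methods' t-test passed none after Benjamini-Hochberg adjustment, where its smallest adjusted p was 0.425. The values of all 3 arrays of a group lay outside those of the other group in 835 probe sets higher and 638 lower in 21W35D piglets. Groups of 3 arrays can also lie apart by chance alone, so these counts are no sign of differences either. The median difference over all probe sets was 0. Of the 5 probe sets called by limma, 2 carry a gene symbol, SFTPD and CD3G.

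SFTPD, which encodes surfactant protein D, a collectin of the lung and of mucosal surfaces, was lower in 21W35D piglets. Its probe set Ssc.23500.1.S1_s_at read 10.01, 9.03 and 9.81 in the arrays labelled S35D and 5.73, 6.54 and 6.23 in 21W35D arrays. The groups did not overlap. The mean was 9.62 ± 0.52 (SD, n = 3) against 6.17 ± 0.41 (SD, n = 3), a difference of -3.45 log2 units (SE 0.42) or 10.95-fold, with an adjusted p of 0.00523 in limma. A second probe set of the gene, Ssc.319.1.S1_at, read 11.41, 10.63 and 10.86 against 7.10, 7.997 and 7.61. Its difference was -3.40 (SE 0.86), of the same size but with an adjusted p of 0.358 in limma. The call at the first probe set was kept with each of the 6 arrays left out in turn. It was lost with only these 6 arrays in the limma fit (adjusted p 0.684), after adjustment of the methods' t-test (0.818) and with the labels exchanged. The mean of the first probe set was 5.59 ± 0.27 (SD, n = 4) in S28D, 5.81 ± 0.46 (SD, n = 4) in S21D and 7.18 ± 0.72 (SD, n = 3) in S14D piglets, which suckled to 28, 21 and 14 days, and 5.89 ± 0.74 (SD, n = 3) in the arrays labelled 21W28D. Thus the arrays labelled S35D were the high ones among all 6 groups, and with the labels exchanged the differences became 0.27 and 0.91.

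CD3G, which encodes the gamma chain of the CD3 complex of T cells, was the 1 named gene called higher. It read 7.79, 8.06 and 8.10 in the arrays labelled S35D and 9.36, 8.91 and 9.32 in 21W35D arrays, so that replicate 2 of 21W35D lay with its group here. The difference was 1.21 (SE 0.19), with an adjusted p of 0.0359 in limma. Across the suckling groups its mean was 6.61 at 14 days, 7.27 at 21 days and 7.61 at 28 days, and in the arrays labelled 21W28D it was 8.53. The adjusted p is close to its threshold. It was 0.114 without replicate 1 of S35D, 0.135 and 0.0942 without replicates 1 and 3 of 21W35D, 0.0561 with each array centred on its median, and 0.266 with the labels exchanged, where the difference was 0.67.

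The other 3 called probe sets have no gene symbol. Ssc.30527.1.A1_at read 2.85, 2.67 and 3.03 in the arrays labelled S35D and 4.58, 5.97 and 5.47 in 21W35D arrays, a difference of 2.49 (SE 0.27, limma adjusted p 0.00257). Its 3 values in the arrays labelled S35D lay within 1 unit of the floor, so the size of this difference is uncertain. Ssc.22877.1.A1_at was at the floor in all 3 arrays labelled S35D and read 3.18, 2.99 and 4.11 in 21W35D arrays. Its fitted difference of 1.34 (limma adjusted p 0.0155) is measured from floored values that did not vary, so neither its size nor its p is that of a measured difference. Both probe sets kept their call with the labels exchanged, with differences of 2.28 and 1.30. With only the 6 arrays in the limma fit, and after adjustment of the methods' t-test, none of the 5 probe sets was called. Ssc.18990.1.A1_at read 9.63, 10.73 and 10.57 against 7.89, 8.57 and 8.53, a difference of -1.98 (SE 0.28, limma adjusted p 0.0193) that was -0.27 with the labels exchanged. RYBP, a component of Polycomb complexes, and PIKFYVE, a lipid kinase of endosomes, were the named genes that passed the adjusted p below the fold minimum, with differences of 0.57 (limma adjusted p 0.0354) and 0.65 (limma adjusted p 0.0399), and both were picked after their values were seen.

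**Figure D1:**
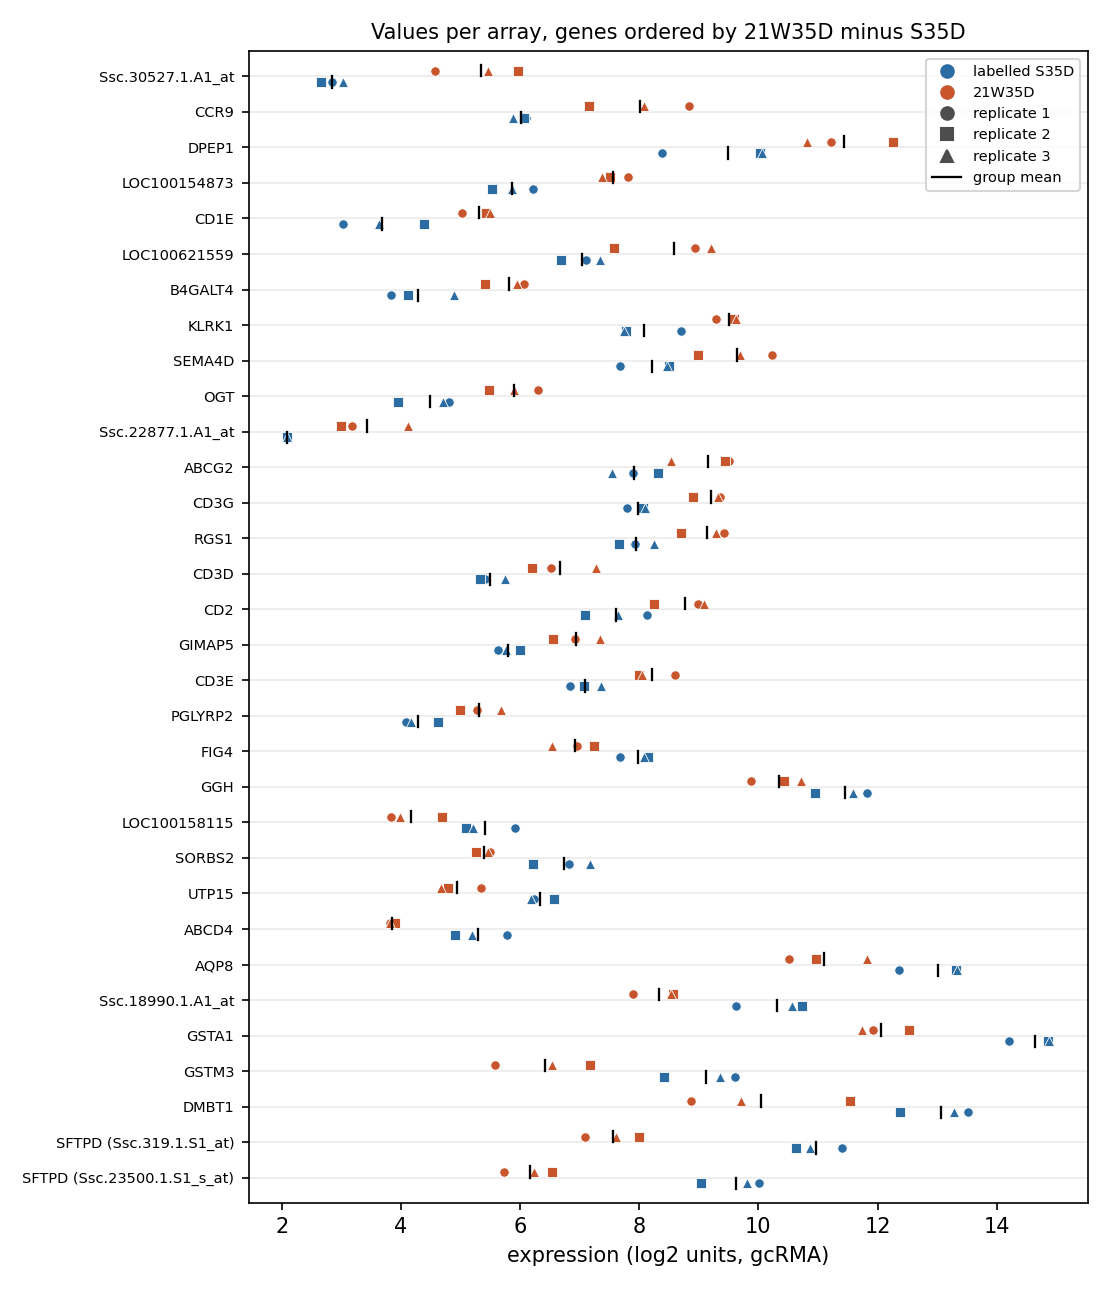
Expression (horizontal axis, log2 units, gcRMA) of 32 probe sets chosen by the naming rule, in the 3 arrays labelled S35D (blue) and the 3 arrays of 21W35D (orange). Symbols mark replicates, black ticks mark group means, and rows run from the probe set with the highest positive difference to SFTPD, whose 21W35D values of 5.73 to 6.54 lie below the 9.03 to 10.01 of the arrays labelled S35D.

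The measured genes of T cells all had positive differences in 21W35D piglets, and 1 of them, CD3G, passed the adjusted test. In this mucosa a larger number of T cells and more RNA per T cell cannot be told apart. Of 22 listed T cell receptor genes 13 were measured, and the brightest probe set of each had a positive difference, with a median of 1.11. Of the 13, 12 reached 4 log2 units in some array, and for the other the sign is no measured difference. The median over all 6765 named genes was 0. By the methods' criterion 4 of the 13 were higher (CD3D, CD3E, CD3G and CD2), against 0.31% of named genes higher and 0.133% lower. The groups did not overlap in 5 of the 13, all higher, against 3.59% of named genes higher and 4.26% lower.

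CD3D, which encodes the delta chain of CD3, read 5.41, 5.33 and 5.74 in the arrays labelled S35D and 6.52, 6.21 and 7.28 in 21W35D arrays. CD3E, for the epsilon chain, read 6.84, 7.08 and 7.35 against 8.61, 8.002 and 8.05, and CD2, an adhesion receptor of T and NK cells, read 8.12, 7.09 and 7.64 against 8.98, 8.24 and 9.08. In these 3 genes every 21W35D array lay above every array labelled S35D. The differences were 1.18, 1.13 and 1.15, with limma adjusted p of 0.706 to 0.844, and 0.62, 0.50 and 0.87 with the labels exchanged. Other members were high in 2 of the 3 weaned piglets. SH2D1A, an adaptor of T cell signalling, read 6.45, 7.50 and 7.64 against 9.43, 7.19 and 9.27, and LAT, a scaffold below the receptor, read 4.32, 4.71 and 4.69 against 6.59, 3.91 and 6.56. CD8A, the co-receptor of cytotoxic T cells, read 8.61, 9.54 and 9.27 against 10.38, 7.95 and 10.09. CD4 was at or next to the floor in all 6 arrays, so it gave no measure of helper T cells.

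The T cell receptor score was -0.499, 0.14 and 0.0465 in the arrays labelled S35D and 1.55, -0.184 and 1.4 in 21W35D arrays, so replicate 2 of 21W35D lay within the range of the arrays labelled S35D. The median of the list was 1.41 without replicate 2 and 0.694 without replicate 1 of 21W35D, the extremes over the 6 arrays left out in turn, and it was 0.013 with the labels exchanged. The epithelial score overlapped between the groups, as given above. Of 11 measured epithelial genes 10 were nevertheless negative, with a median of -0.224, and none had groups apart. That median was -0.323 to -0.0817 with each of the 6 arrays left out, and 0.39 with the labels exchanged. Relative to the epithelial genes of its array the difference of CD3G was 1.44 with a limma adjusted p of 0.393.

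Receptors of mucosal and cytotoxic lymphocytes were among the higher genes by the methods' criterion. CCR9, the chemokine receptor that brings lymphocytes to the small intestine, read 6.10, 6.07 and 5.89 in the arrays labelled S35D and 8.83, 7.16 and 8.08 in 21W35D arrays. Its difference was 2.00 (SE 0.37) with a limma adjusted p of 0.101, and without replicate 2 of 21W35D it was 2.43 with an adjusted p of 0.00988. With the labels exchanged it was 0.56. The transcript of its ligand CCL25, made by the epithelium, read 13.47, 12.75 and 12.69 against 12.45, 13.84 and 12.27, so its groups overlapped.

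KLRK1, which encodes the activating receptor NKG2D of NK and CD8 T cells, read 8.70, 7.78 and 7.74 in the arrays labelled S35D and 9.29, 9.59 and 9.63 in 21W35D arrays. Its difference was 1.43 (SE 0.34, limma adjusted p 0.28) and it was 1.41 with the labels exchanged. GIMAP5, a GTPase needed for lymphocyte survival, read 5.64, 6.003 and 5.77 against 6.93, 6.56 and 7.34. Its difference was 1.14 (SE 0.21, limma adjusted p 0.0917), 1.33 with an adjusted p of 0.0214 without replicate 2 of 21W35D, and 1.01 with the labels exchanged. In KLRK1 and GIMAP5 replicate 2 of 21W35D lay with its group, though in GIMAP5 it was the lowest of the group. Of the 6 measured genes of the NK and cytotoxic list, KLRK1 was the 1 past the methods' criterion, against 0.31% of named genes higher. GNLY, the lytic protein granulysin, read 6.73, 8.27 and 8.23 against 7.63, 9.09 and 9.45, and GZMH, a granzyme, read 9.03, 9.13 and 8.57 against 9.06, 9.50 and 9.08, both with overlap.

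SEMA4D, a semaphorin of T cells, read 7.67, 8.50 and 8.46 in the arrays labelled S35D and 10.23, 8.99 and 9.69 in 21W35D arrays, a difference of 1.42 (limma adjusted p 0.215, and 0.0247 without replicate 2 of 21W35D). In CCR9, GIMAP5 and SEMA4D that array was the lowest of its group, so leaving it out raised each difference. With any other of the 6 arrays left out, none of these 3 genes had a limma adjusted p under 0.05. RGS1, a regulator of chemokine receptor signalling in lymphocytes, differed by 1.197 (limma adjusted p 0.648). CD1E, of the CD1 family that presents lipid antigens, read 3.03, 4.38 and 3.64 against 5.03, 5.43 and 5.50, a difference of 1.64 (limma adjusted p 0.529). Among chemokines, CCL5, an attractant of T cells, read 9.81, 9.88 and 9.60 against 10.76, 10.51 and 10.79. Its groups did not overlap, its difference of 0.92 was below 2-fold, and its limma adjusted p was 0.844. Under exchanged labels the differences were 0.29 for SEMA4D, 0.18 for RGS1, 0.66 for CD1E and 0.86 for CCL5.

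**Figure D2:**
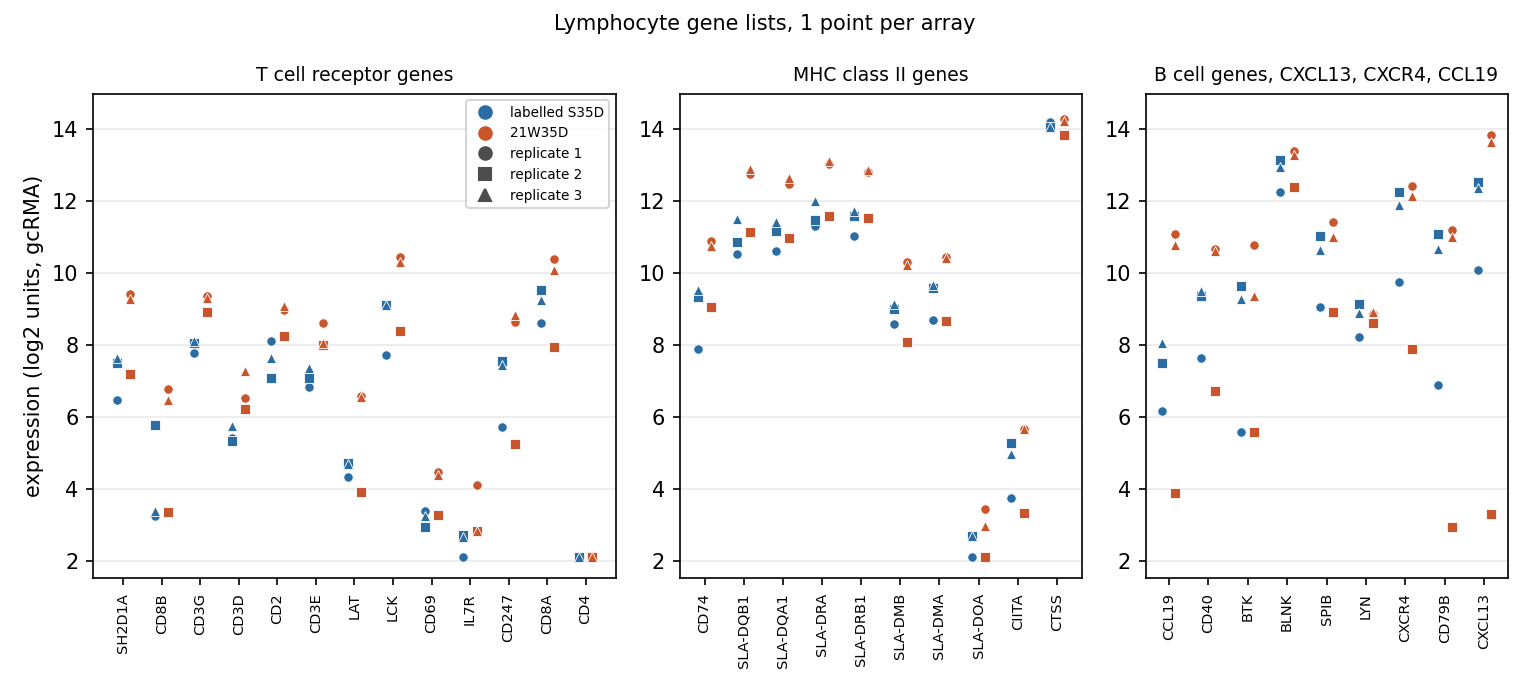
Expression (vertical axis, log2 units, gcRMA) of measured T cell receptor genes, MHC class II genes, and B cell genes with the chemokine genes CXCL13, CXCR4 and CCL19, 1 point per array, with blue for arrays labelled S35D, orange for 21W35D and symbols for replicates. Replicate 2 of 21W35D (orange squares) lies with its group in CD3G at 8.91 and far below it in CXCL13 at 3.28 and CD79B at 2.93.

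MHC class II and B cell genes were spread widely within 21W35D, where replicate 2 was low. Of 10 measured MHC class II genes 9 had a positive difference, the median was 0.789, and none was called, passed the methods' criterion or had groups apart. SLA-DQB1, a beta chain that binds peptide, read 10.54, 10.86 and 11.51 in the arrays labelled S35D and 12.76, 11.13 and 12.91 in 21W35D arrays. CD74, the invariant chain, read 7.89, 9.32 and 9.53 against 10.89, 9.05 and 10.76. In both, replicates 1 and 3 of 21W35D lay above all arrays labelled S35D and replicate 2 among them. Without replicate 2 the difference of SLA-DQB1 was 1.87, called by limma at an adjusted p of 0.0429. The list median then was 1.37, and with the labels exchanged it was -0.28.

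CD79B, a signalling chain of the B cell receptor, read 6.88, 11.10 and 10.66 in the arrays labelled S35D and 11.20, 2.93 and 11.01 in 21W35D arrays. CXCL13, the chemokine that forms B cell follicles, read 10.08, 12.53 and 12.38 against 13.84, 3.28 and 13.65. Its difference was -1.40 (SE 1.99), 2.09 without replicate 2 of 21W35D and -3.05 with the labels exchanged. CCL19, which draws T cells and dendritic cells into lymphoid tissue, read 6.15, 7.49 and 8.05 against 11.08, 3.87 and 10.79. In these genes replicate 2 of 21W35D was the lowest of the 6 arrays and replicate 1 of S35D the lowest of its group.

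The B cell receptor score, over 6 measured of 21 listed genes, was -2.27, 0.0256 and -0.225 in the arrays labelled S35D and 0.516, -3.02 and 0.152 in 21W35D arrays. The median difference of the list was 0.226, 1.27 without replicate 2 of 21W35D and -1.21 with the labels exchanged. With this score as a covariate in the fit, an alternative chosen after seeing the data, the count of called probe sets was 22 in place of 5, and CD3G had a difference of 1.21 with an adjusted p of 0.0178. The cell cycle list moved with it, with scores of -0.346, 0.0639 and 0.0464 against 0.0232, -1.52 and 0.0108. Its median was -0.478, with 20 of 22 measured genes negative, 0.0675 without replicate 2 of 21W35D and -1.1 with the labels exchanged. VCAM1, ICAM1 and VAV1, which serve the adhesion and signalling of leukocytes, had differences of 0.41, 0.26 and 0.19, each with a limma adjusted p of 1, and their groups overlapped. Without replicate 2 of 21W35D, which was the lowest of the 6 arrays in all 3 genes, the differences were 1.19, 1.18 and 1.06, and with the labels exchanged they were -0.76, -0.88 and -1.04.

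**Figure D3:**
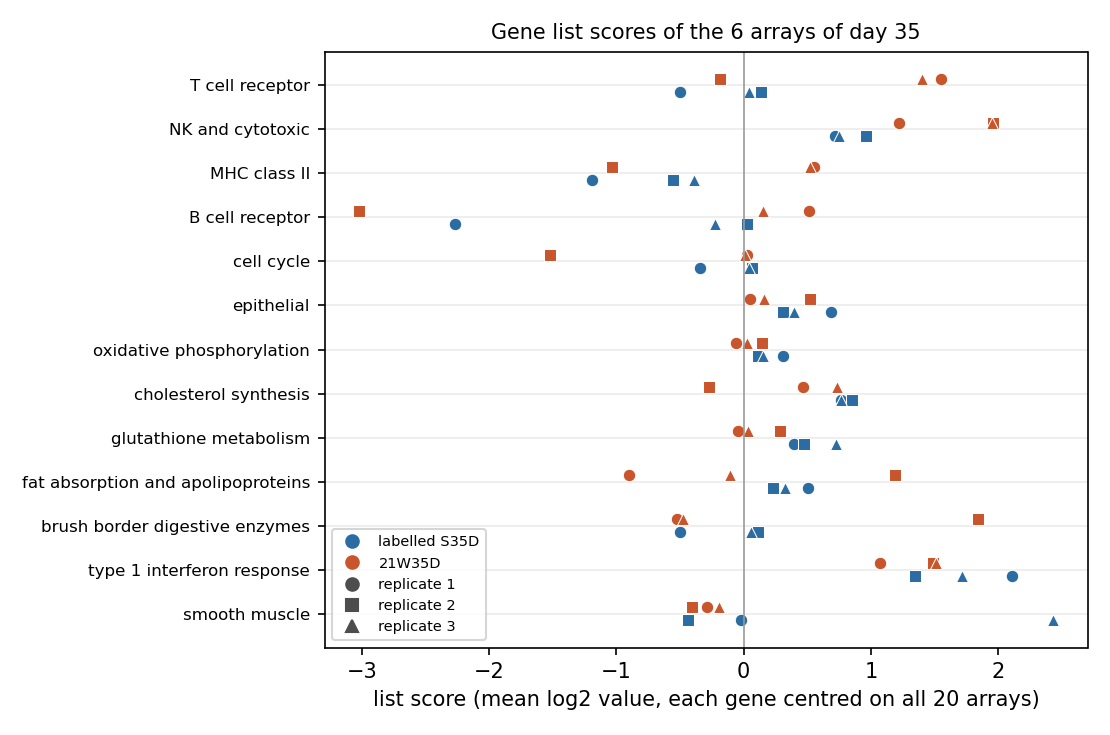
Scores of 13 gene lists in the 6 arrays of 35 days of age (horizontal axis, average log2 value of listed genes, each centred over the 20 arrays), with blue for arrays labelled S35D, orange for 21W35D and symbols for replicates. The B cell receptor and cell cycle scores of replicate 2 of 21W35D, -3.02 and -1.52, are the lowest of the 6 arrays, and the smooth muscle score of replicate 3 of S35D, 2.43, is the highest.

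Among secreted defence proteins, DMBT1 was also lower by the methods' criterion. DMBT1, a scavenger receptor secreted onto mucosal surfaces and a known binding partner of surfactant protein D, read 13.51, 12.38 and 13.28 in the arrays labelled S35D and 8.87, 11.53 and 9.71 in 21W35D arrays. The groups did not overlap, and the nearest arrays were 12.38 and 11.53. The difference was -3.02 (SE 0.88, limma adjusted p 0.487), and 2.19 with the labels exchanged. Of 18 measured genes of the antimicrobial and mucosal defence list, DMBT1 and SFTPD were lower and PGLYRP2, an amidase that cleaves bacterial peptidoglycan, was higher by the methods' criterion, against 0.133% of named genes lower and 0.31% higher, and the list median was 0. PGLYRP2 read 4.09, 4.62 and 4.17 against 5.28, 4.99 and 5.68, with a difference of 0.10 under exchanged labels. SLPI, an inhibitor of leukocyte proteases, read 14.19, 13.31 and 14.08 against 11.02, 13.49 and 12.21, and BPI, which binds endotoxin, read 9.50, 8.44 and 9.72 against 6.19, 9.68 and 7.29. In both, replicate 2 of 21W35D lay in the range of the arrays labelled S35D, opposite to its place in the B cell genes.

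Of the enzymes of glutathione conjugation, GSTA1 and GSTM3 were lower by the methods' criterion. GSTA1, an alpha class glutathione S-transferase of the epithelium, read 14.20, 14.86 and 14.88 in the arrays labelled S35D and 11.92, 12.53 and 11.74 in 21W35D arrays. All arrays labelled S35D were above all of 21W35D. The difference was -2.58 (SE 0.79, limma adjusted p 0.527). Alpha class enzymes are a family of similar genes, and a probe set can read more than 1 of them. GSTM3, of the mu class, read 9.61, 8.42 and 9.35 against 5.58, 7.17 and 6.53, a difference of -2.70 (SE 0.96, limma adjusted p 0.656). They were the only members past it in either direction, out of 20 measured genes of glutathione metabolism, against 0.133% of named genes lower. The list median was -0.24, and 0.295 with the labels exchanged. Under exchanged labels GSTA1 and GSTM3 differed by 2.40 and 0.25, so the direction of both rests on the labels. Across the younger suckling groups GSTA1 had means of 9.10 at 14 days, 4.93 at 21 days and 11.50 at 28 days, and its mean was 9.66 in the arrays labelled 21W28D.

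Transporters and enzymes differed in both directions, and those named passed the methods' criterion. AQP8, a water channel, read 12.37, 13.32 and 13.34 in the arrays labelled S35D and 10.51, 10.97 and 11.81 in 21W35D arrays, a difference of -1.91 (SE 0.87, limma adjusted p 0.844). DPEP1, a dipeptidase of the brush border that also cleaves products of glutathione breakdown, read 8.37, 10.02 and 10.05 against 11.22, 12.26 and 10.82, a difference of 1.95 (SE 0.50, limma adjusted p 0.358). With the labels exchanged both changed sign, to 0.67 and -0.43. ABCG2, a pump that exports compounds into the lumen, differed by 1.23 (limma adjusted p 0.824). B4GALT4, a galactosyltransferase, differed by 1.53 (limma adjusted p 0.423), and OGT, which adds N-acetylglucosamine to proteins inside the cell, by 1.41 (limma adjusted p 0.844). The differences of ABCG2, B4GALT4 and OGT were 0.16, 0.08 and -0.43 under exchanged labels. For ABCG2 and OGT these values are from the probe set with the largest difference as labelled. The brightest probe sets of ABCG2 and OGT differed by 0.38 and 0.58 as labelled, and neither passed the methods' criterion.

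Lower genes past the methods' criterion also included UTP15, a factor of ribosome assembly, at -1.39, SORBS2, an adaptor of the actin cytoskeleton, at -1.33, and ABCD4, a lysosomal protein of cobalamin transport, at -1.44. GGH, which trims folate polyglutamates, was at -1.11 and FIG4, a phosphoinositide phosphatase, at -1.06. FIG4 kept a difference of -1.12 with the labels exchanged, while GGH and ABCD4 then had 1.52 and 0.79, and UTP15 and SORBS2 -0.31 and -0.26. Limma adjusted p values of these 5 genes were 0.215 to 0.844. Brighter probe sets of GGH and ABCD4 differed by -0.65 and -0.94 as labelled, short of 2-fold. LOC100154873 and LOC100621559 differed by 1.70 and 1.53, and LOC100158115 by -1.24, and the files give no function for them. Under exchanged labels these differences were 0.51, 0.06 and 0.14.

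Lists of epithelial metabolism went in both directions. Brush border digestive enzymes had 6 positive and 2 negative genes with a median of 0.115, and sugar and amino acid transporters 7 and 4 with a median of 0.059. Replicate 2 of 21W35D had the highest score of the 6 arrays in both lists, and without it the medians were -0.197 and -0.398. With the labels exchanged they were 0.273 and 0.669. Of 24 measured genes of oxidative phosphorylation 23 were negative, with a median of -0.133, and the groups were apart in 7, all lower, against 4.26% of named genes lower. NDUFV2, a subunit of complex I, read 12.31, 12.01 and 12.07 in the arrays labelled S35D and 11.91, 11.93 and 11.86 in 21W35D arrays, a difference of -0.23 (SE 0.08, limma adjusted p 0.668). None of the 24 was called or passed the methods' criterion, and with the labels exchanged the median was 0.0359. The epithelial list, given above, had a median of -0.224, and whether the lists move together was not tested. All 11 measured genes of cholesterol synthesis were negative, with a median of -0.504. SQLE, squalene epoxidase, read 10.59, 10.51 and 10.64 against 10.13, 8.57 and 10.50, with replicate 2 of 21W35D the lowest, and the list median was -0.13 without that array and 0.787 with the labels exchanged. The median of 17 measured genes of fat absorption was -0.214, -0.835 without replicate 2 of 21W35D and 0.565 with the labels exchanged. Among them PLIN2, a coat protein of lipid droplets, had groups apart at 11.04, 9.52 and 10.00 against 8.39, 9.25 and 8.70, a difference of -1.40 (limma adjusted p 0.548). APOC3, an apolipoprotein, read 13.84, 12.66 and 13.67 against 7.32, 15.19 and 11.34, so that replicates 1 and 2 of 21W35D were the lowest and the highest of the 6 arrays. In the goblet cell and mucin list 7 of 8 measured genes were negative, with a median of -0.38, which was 0.38 with the labels exchanged. The groups of TFF3 and SPINK4, peptides secreted by goblet cells, were apart, against 4.26% of named genes lower, with differences of -0.38 and -0.59.

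Interferon genes were high in both groups. ISG15, a ubiquitin-like protein induced by type 1 interferon, read 14.89, 13.82 and 14.23 in the arrays labelled S35D and 13.47, 13.61 and 13.92 in 21W35D arrays, a difference of -0.65 (SE 0.61, limma adjusted p 1). IFIT2 and USP18, also induced by interferon, had differences of -0.73 and -0.78. Of 22 measured genes of the type 1 interferon response 19 were negative, with a median of -0.469, none was called or passed the methods' criterion, and groups were apart in 4 lower and 1 higher, against 4.26% of named genes lower and 3.59% higher. This list turns on the labels more than any other described here. With the labels exchanged its median was 2.38, 2 of the 22 were called higher by limma, against 0.0625% of all probe sets, and 17 were higher by the methods' criterion, against 1.09% of named genes. ISG15, IFIT2 and USP18 then differed by 3.59, 2.32 and 1.97. From real-time PCR, the paper reports higher expression of these genes in weaned than in suckling piglets of the oldest age sampled. That direction is opposite to the arrays as labelled and the same as with the labels exchanged. Whether the labels were exchanged was not tested.

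With the labels exchanged, 15 probe sets were called higher (0.0625%) and 1 lower (0.00417%). The named ones higher were DDX58, AREG, RSAD2, ISG15, IFIT1, FOS, LYVE1, DUSP6 and CDKN1A, and the lower one was HECW1. DDX58, a sensor of viral RNA, RSAD2, ISG15 and IFIT1 are interferon genes, while AREG is a growth factor, FOS a transcription factor and DUSP6 a phosphatase of growth factor signalling. The calls common to both labellings were the 2 unnamed probe sets given above. By the methods' criterion 80 probe sets passed as labelled and 220 exchanged. Both labellings share the 21W35D arrays. Of these probe sets 11 passed in the same direction, among them KLRK1, GIMAP5 and FIG4, and 3 in opposite directions, of which 2 were probe sets of GSTA1.

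Whether the difference between weaned and suckling piglets at 35 days was unlike that at 28 days was tested with an interaction contrast in limma. It subtracts the difference of 21W28D from S28D from that of 21W35D from S35D. No probe set passed an adjusted p of 0.05, the smallest was 0.0619, and 610 had an unadjusted p under 0.05. The contrast was -3.75 (SE 0.58, adjusted p 0.149) for SFTPD, 0.30 (SE 0.26, adjusted p 1) for CD3G and 1.06 (SE 0.28, adjusted p 1) for GIMAP5. The smallest adjusted p was that of Ssc.4325.1.S1_at, a probe set without a symbol that read 7.48, 6.06 and 7.52 in the arrays labelled S35D and 3.39, 3.17 and 3.31 in 21W35D arrays. Its mean was 7.27 in the arrays labelled 21W28D and 3.15 in S28D arrays, so its difference at 28 days had the opposite sign.

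**Figure D4:**
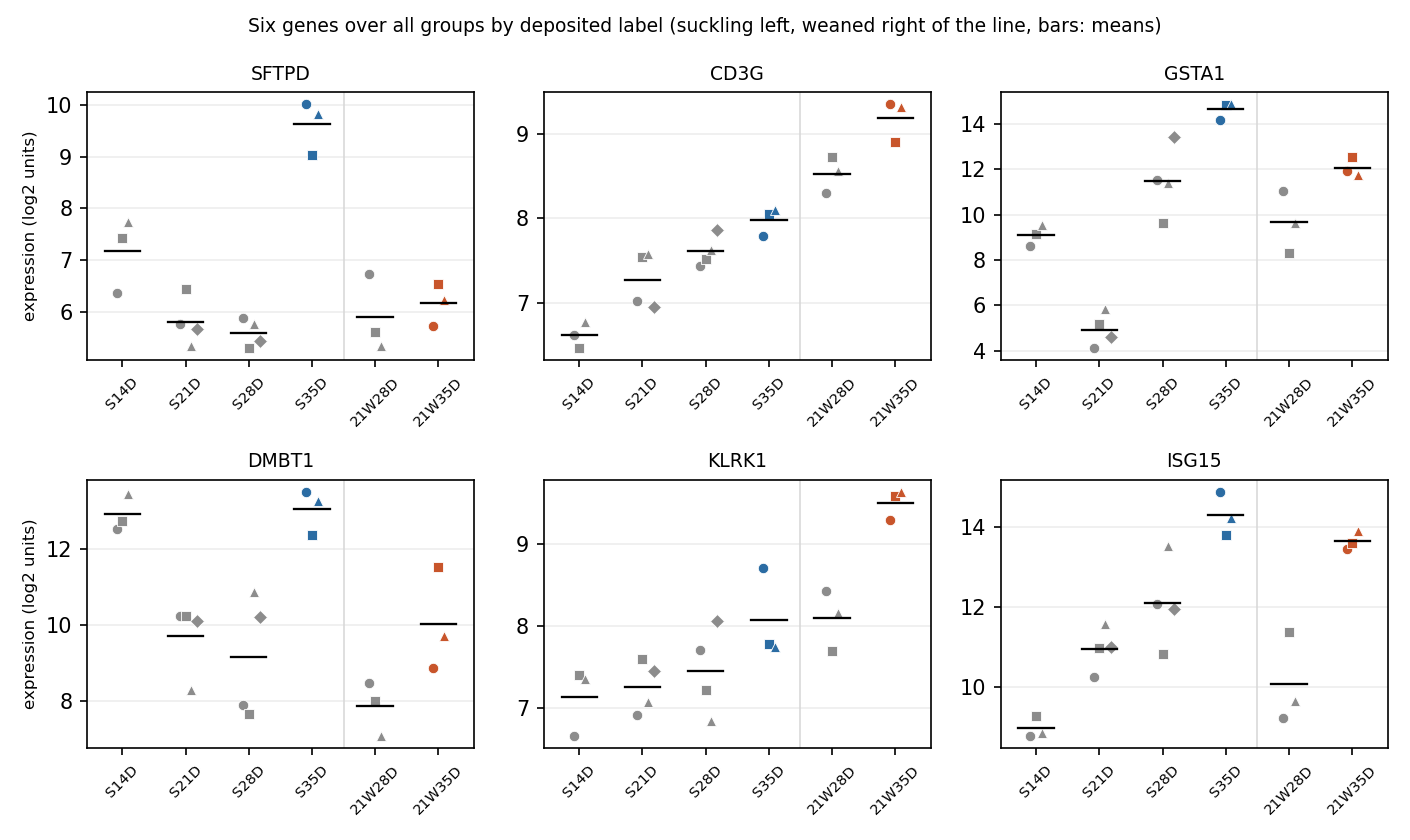
Expression (vertical axes, log2 units) of SFTPD (Ssc.23500.1.S1_s_at), CD3G, GSTA1, DMBT1, KLRK1 and ISG15 in all 6 groups by deposited label, 1 point per array with symbols for replicates and bars for group means, and with the arrays labelled S35D in blue and 21W35D in orange. SFTPD is high in the arrays labelled S35D, at 9.03 to 10.01, and ISG15 is high in them and in 21W35D arrays and lower in those labelled 21W28D.

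Smooth muscle genes were set by 1 array. CNN1, calponin, read 6.34, 5.72 and 10.34 in the arrays labelled S35D and 5.62, 6.05 and 5.69 in 21W35D arrays, and DES, desmin, read 4.66, 4.66 and 8.11 against 4.61, 4.66 and 4.66. The smooth muscle score of replicate 3 of S35D was 2.43 and those of the other 5 arrays were -0.433 to -0.0211. The list median was -0.87, and -0.0164 without that array. Without replicate 3 of S35D the difference of SFTPD at Ssc.23500.1.S1_s_at stayed called and that of CD3G was 1.27 with a limma adjusted p of 0.0409.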

How the data were processed

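Ileal mucosa RNA of 20 piglets was measured on 1 array each, and the 6 arrays of 35 days were compared. The deposited values are log2 units that the authors made with gcRMA, and they were used as they are. GCOS 1.2 and GCRMA are the tools in the submitters' processing notes. Raw intensities were not used here. Of 24123 probe sets, 124 controls were left out, and 10069 of the others have 1 gene symbol in the platform annotation. Chromosomal positions were not used here.

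The main test was limma 3.58.1 in R 4.3.3 on all 20 arrays with 1 mean per group, adjusted by Benjamini-Hochberg over 23999 probe sets. The methods' t-test was run on the same values, without the 6087 probe sets that did not vary in either group. The number of arrays limits the precision. Of 1035 genes in 52 lists 663 were measured, each by its brightest probe set, and lists are described by counts and medians. Scores use members that reach 4 log2 units. Figures were drawn with Python 3.11.15 and matplotlib 3.10.9. The test was checked on simulated data.

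Named genes were those called by limma, then the 15 largest differences in each direction among probe sets with 1 symbol that reach 4 log2 units in a whole group, do not overlap and pass the methods' criterion, then genes the paper names, of which IFI6 was not measured, and up to 4 members per list. List members whose values did not pass were named as examples after their values were seen. The comparison, members and lists were chosen with earlier results of these data known. Alternatives were a filter on dim probe sets, no fold minimum, 1 probe set per gene, only 2 groups in the fit, an intensity trend, median centring, quantile normalization, a replicate block, the methods' t-test, exchanged labels and each array left out. Values relative to epithelial genes, and a covariate of the B cell score, were added after seeing the data.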

Additional observations from a re-analysis of the deposited data

Results flagged for a closer look

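In 84 groups of 4 arrays, formed by 42 named probe sets in S21D and S28D piglets, 7 had 1 array far from the others by Dixon's criterion, which chance alone passes in about 1 in 20 groups. No group of 3 arrays, S35D and 21W35D included, was tested. In S21D piglets, replicate 2 read 2.246 for Ssc.22877.1.A1_at, where the others were at 2.088, and 9.448 for ICAM1, where the others were at 9.736 to 9.794. Replicate 3 of S21D read 9.351 for AQP8 beside 10.15 to 10.25 and 8.283 for DMBT1 beside 10.1 to 10.25. In S28D piglets, replicate 3 read 3.211 for LOC100154873 beside 6.215 to 6.794, replicate 4 read 7.646 for CD3E beside 6.441 to 6.556, and replicate 2 read 3.345 for GSTM3 beside 7.52 to 8.121. These groups enter the comparison of 35 days through the shared estimate of the spread.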

How the results depend on the processing

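The count of called probe sets, 5, was 11 without the fold minimum, 1 with 1 probe set per gene, 0 with only the 6 arrays in the fit, 16 with the labels exchanged, 22 with a B cell covariate, 3 relative to epithelial genes and 4 to 26 with each array left out, of which 26 was without replicate 2 of 21W35D and 19 without replicate 2 of S35D. The methods' t-test passed 80 unadjusted and 0 adjusted. Its 80 became 220 with the labels exchanged, 57 to 417 with each array left out, 417 without replicate 2 of 21W35D and 131 without replicate 2 of S35D. The interaction count of 0 became 3 to 13 with each array left out. Same-numbered arrays deviated from their group means with correlations of -0.514, -0.254 and 0.424. With 3 arrays per group these values cannot decide whether the numbers pair piglets. The replicate block in limma gave 3 calls and adjusted p-values of 0.0708 for CD3G and 0.0534 for Ssc.22877.1.A1_at. CD3G also lost its call after quantile normalization (adjusted p 0.0645) and with only the 6 arrays in the fit (0.816). Over 704 values of named genes under these alternatives, 643 kept direction and call, 23 lost the call, 7 gained it and 31 turned sign. With the labels exchanged these signs turned: DPEP1 -0.4307, OGT -0.4333, VCAM1 -0.7579, SLA-DOA -1.236, ICAM1 -0.8809, VAV1 -1.038, GAPDH -0.1034, ISG15 3.588, IFIT2 2.316, USP18 1.966, GGH 1.519, LOC100158115 0.1371, ABCD4 0.7925, AQP8 0.6698, GSTA1 2.4, GSTM3 0.2477, DMBT1 2.185 and SFTPD 0.9108 and 0.2718. SLA-DOA read 2.08 to 2.69 in the arrays labelled S35D and 2.08 to 3.43 in 21W35D arrays. These values are near the floor, so its sign as labelled is no measured difference. Median centring turned GAPDH to -0.000823 and ACTB to -0.007634. With each array left out, CXCL13 was -3.194 to 2.086, VCAM1 -0.0404 to 1.187, ICAM1 -0.2853 to 1.179, VAV1 -0.3583 to 1.06, GAPDH -0.0213 to 0.07046 and ACTB -0.0654 to 0.09734. The cause of these changes was not tested.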
